A study of Mus musculus with 16 samples.

Results

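Carboxylesterases are enzymes, mostly of the endoplasmic reticulum, that cleave ester, amide and thioester bonds in drugs, toxicants and lipids, and the liver is the organ richest in them. In the mouse the genes were multiplied by repeated duplication, so that a single human gene is matched by several mouse genes lying side by side. Some proteins of the Ces1 group take part in the turnover of stored triacylglycerol and in the loading of very low density lipoprotein (VLDL). Those of the Ces2 group hydrolyse acylglycerols and ester drugs. The genes described here were chosen by symbol from the deposited table, and are Ces1c, Ces1d, Ces1e, Ces1f, Ces1g, Ces2a, Ces2c, Ces2e, Ces3a and Ces3b. They are 10 of the 57010 genes listed, and each had 1 row.

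Liver RNA was sequenced from 16 wild-type male C57BL/6J mice, 4 in each of 4 groups. The mice were about 8 weeks old when the diet began, as the scheme of the experiment has it, and 8 to 12 weeks old by the methods. Control mice received neither agent, and whether they or the Se mice had a vehicle injection is not given in the sources used here. Cd mice received CdCl2 by intraperitoneal injection at 1.25 mg/kg for 7 days, Se mice ate a diet with selenomethionine (SeMet) at 2 ppm for 3 months, and Cd+Se mice received both, with Cd given at the end of the SeMet period. The sample titles give each animal number with 2 replicate marks, but the table has 1 column a mouse, which is called a library here and named by its group and animal number. The unit was TPM, a share of all transcripts in the library, which is scaled for transcript length, so that genes can be compared with each other within a library. Sequencing depth cannot be read from TPM, and is unknown for every value here. In bulk liver, fewer cells of a type and less RNA per cell cannot be told apart.

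The transcripts matched the labels for Cd and for liver. Mt1 and Mt2, whose products bind Cd, summed to between 6260 and 11942 TPM in the 8 mice given Cd and to between 77.3 and 667 TPM in the 8 others. The most abundant of 10 hepatocyte markers, Alb, averaged 52073 TPM in controls. Intestine, which is also rich in Ces2 transcripts, was checked by its markers, of which Alpi, Sis and Cdx1 were at 0 TPM in all 16 libraries, while Fabp2, the most abundant of the 8 intestinal markers, averaged 94.9 TPM in controls and carried most of their summed level of 110 TPM. Of the pancreas markers, Try5 was at 0 throughout and Cela1 was the most abundant, at 20.5 TPM in controls.

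Every member lies on chromosome 8, in 2 clusters of the GRCm38 build as annotated by GENCODE M21. The first cluster, chr8:93020214-93535830, holds 9 carboxylesterase genes of the Ces1 and Ces5 groups, all on the minus strand, and 5 of the members. The second, chr8:104734003-105150109, holds 11 genes of the Ces2, Ces3 and Ces4 groups, all on the plus strand, and the other 5 members. Ces1d, the gene with the clearest response below, spans chr8:93166068-93197838 between Ces1c (chr8:93099015-93131283) and Ces1e (chr8:93201218-93229619). Ces2a opens the second cluster at chr8:104734003-104741634, Ces2c lies at chr8:104847068-104854483 and Ces2e at chr8:104926260-104934672. Ces3a (chr8:105048601-105058413) and Ces3b (chr8:105083753-105093929) are neighbours.

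The promoters of 3 Ces2 members are shown because 2 of these genes, Ces2a and Ces2e, passed the test as lower in Cd mice and the third, Ces2c, did not. The sequences are the 250 bases before the annotated start, 5′ to 3′, from RefSeq (GRCm38.p6), all on the plus strand. Capitals mark matches to TTGCNNAA, a pattern of C/EBP factors, or to CCAAT, on either strand. The windows are chr8:104733753-104734002, chr8:104926010-104926259 and chr8:104846818-104847067.
Ces2a: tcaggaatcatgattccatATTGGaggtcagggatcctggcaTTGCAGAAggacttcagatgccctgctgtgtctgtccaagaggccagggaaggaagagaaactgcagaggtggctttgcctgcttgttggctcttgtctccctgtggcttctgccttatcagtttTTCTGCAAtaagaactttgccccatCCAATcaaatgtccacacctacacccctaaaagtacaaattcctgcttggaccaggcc
Ces2e: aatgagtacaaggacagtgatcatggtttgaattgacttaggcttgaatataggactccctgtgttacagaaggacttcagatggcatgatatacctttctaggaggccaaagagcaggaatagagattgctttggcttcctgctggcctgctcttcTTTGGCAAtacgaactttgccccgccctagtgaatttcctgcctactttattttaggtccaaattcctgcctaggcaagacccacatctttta
Ces2c: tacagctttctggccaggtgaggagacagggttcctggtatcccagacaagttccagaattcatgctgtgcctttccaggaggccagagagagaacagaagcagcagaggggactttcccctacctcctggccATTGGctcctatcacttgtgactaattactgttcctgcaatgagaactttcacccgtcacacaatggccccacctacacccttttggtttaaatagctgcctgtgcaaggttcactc

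Over aligned bases these windows were 69.9% identical between Ces2a and Ces2e, 67.5% between Ces2a and Ces2c, and 65.9% between Ces2c and Ces2e. The longest run shared by Ces2a and Ces2e was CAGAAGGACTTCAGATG, of 17 bases, which 2 of the 32851 RefSeq promoter windows hold. It overlaps the first C/EBP match of Ces2a. TTGCNNAA was found in both orientations in Ces2a and once in Ces2e, and not in Ces2c. CCAAT was found in Ces2a, on each strand, and in Ces2c, and not in Ces2e. Promoter windows were at hand for 7 members, namely Ces1c, Ces1e, Ces1g, Ces2a, Ces2c, Ces2e and Ces3b. TTGCNNAA was found in 3 of these 7 (Ces1c, Ces2a and Ces2e), against 9.56% of all windows, and CCAAT in 5 of 7 (Ces1c, Ces1g, Ces2a, Ces2c and Ces3b), against 33.8%. TATAAA was found in 2 of 7 (Ces1g and Ces3b), against 12.4%. The metal response element TGCGCNC, bound by the factor that induces metallothionein genes, was found in 0 of 7, against 12.5% of all windows. TGACNNNGC, the antioxidant response element, was found in 0 of 7 (10.2% of all), TTCNNNGAA, a STAT site, in 0 of 7 (7.02%) and CAAAGTCCA, an HNF4 core, in 0 of 7 (0.384%). These matches are a description of letters in 1 window for each gene.

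The family was dominated by a few transcripts. In control livers Ces1c, which encodes a carboxylesterase secreted into mouse plasma, averaged 1853 ± 267 TPM (SD, n = 4), Ces3a 1052 ± 127 TPM and Ces1d 627 ± 131 TPM. Ces1d encodes the hepatic triacylglycerol hydrolase, an enzyme of the endoplasmic reticulum that frees fatty acids for VLDL loading. Then came Ces1f at 350 ± 60.8 TPM, Ces3b at 230 ± 34.3 TPM, Ces2e at 98.2 ± 15.3 TPM, Ces2a at 95.4 ± 10.4 TPM, Ces1g at 82.7 ± 18.0 TPM, Ces1e at 79.9 ± 14.3 TPM and Ces2c at 16.5 ± 4.59 TPM. Neighbours in this order overlapped between mice for Ces1f and Ces3b, Ces2e and Ces2a, Ces2a and Ces1g, and Ces1g and Ces1e, and the other neighbours did not. Over the 16 mice Ces1c made up 44.3% of the summed TPM of the 10 members, and it ranked 69th among all genes by mean level. All 10 exceeded 1 TPM on average, the level asked of a gene to be tested.

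Of the other 10 family genes in the table, 2 were also tested: Ces1b, at 41.4 TPM over the 16 mice, and Ces2g, at 16.6 TPM. The remaining 8 (Ces1a, Ces1h, Ces2b, Ces2d-ps, Ces2f, Ces2h, Ces4a and Ces5a) averaged under 1 TPM. In the first cluster the 6 tested genes, Ces1b to Ces1g, lie side by side, with Ces1a, Ces1h and Ces5a outside them. In the second cluster tested genes and genes under 1 TPM are interspersed, as the plot of transcript level by distance shows.

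**Figure D1:**
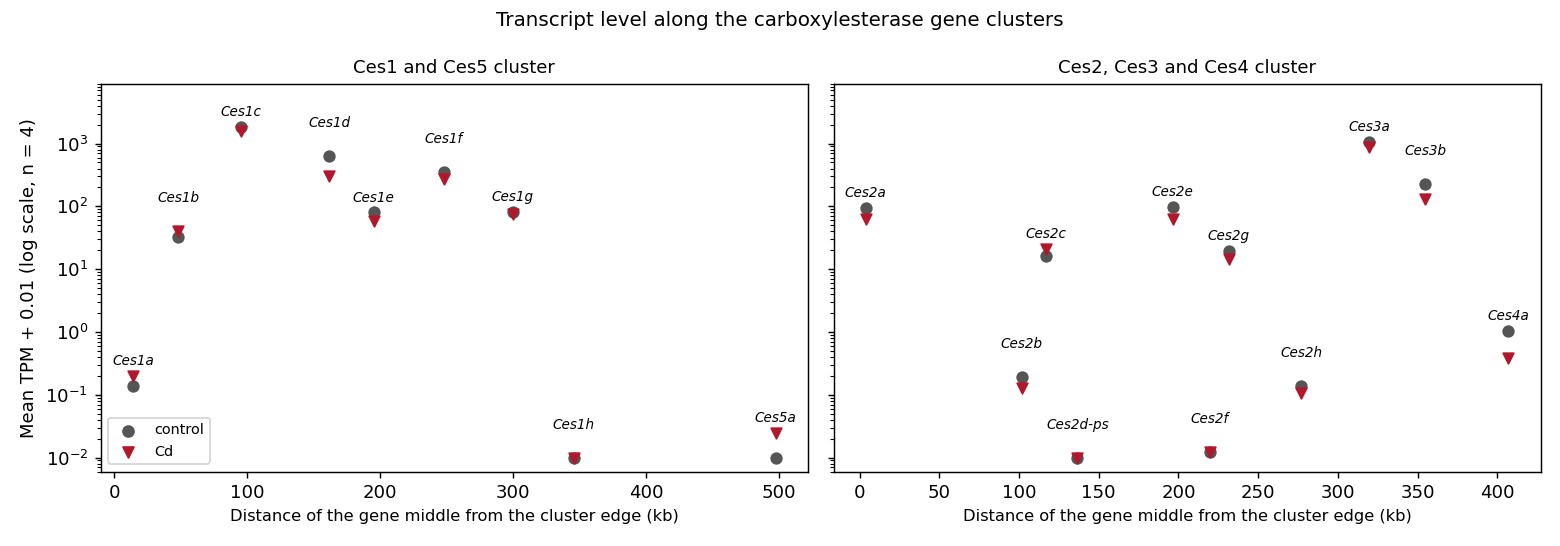
Mean TPM of 20 carboxylesterase genes, with 0.01 added and on a log axis, against the distance of the gene's middle from the edge of its cluster in kb; circles are control mice and triangles Cd mice (n = 4). Ces1c, Ces1d and Ces3a lie highest, and Ces1h, Ces2d-ps, Ces2f and the control circle of Ces5a lie at the bottom of the axis.

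Ces1d fell more than any other member in Cd mice, to less than the level of every other mouse in the series. In control mice 27, 28, 29 and 30 it was 501, 671, 791 and 545 TPM. In Cd mice 1, 2, 5 and 6 it was 327, 292, 294 and 288 TPM. The 4 Cd mice lay close together, and the highest of them was below the lowest control. Their mean was 0.479 times the control mean, and the log2 fold change was -1.04 (SE, the standard error, 0.19, adjusted p = 0.00106 by limma with Benjamini-Hochberg adjustment over 11766 genes). Fold changes here are on the log2(TPM + 1) scale, which understates the change of low genes.

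With SeMet as well as Cd, Ces1d was higher than with Cd alone. Mice 13, 14, 15 and 16 had 337, 434, 595 and 518 TPM, all above the highest Cd mouse, with mouse 13 next to it. The log2 fold change of Cd+Se against Cd was 0.62 (SE 0.19, limma adjusted p = 0.0349). This call was lost in 9 of 24 alternative settings, among them leaving out any 1 of 6 mice (Cd 2, 5 and 6, and Cd+Se 14, 15 and 16), with limma adjusted p between 0.0141 and 0.11 over the settings. Against control, Cd+Se mice stood at 0.751 times the mean, with overlapping values and a log2 fold change of -0.42 (95% interval -0.81 to -0.03, limma adjusted p = 0.417). In the Se mice 39, 40, 41 and 44 it was 528, 816, 798 and 776 TPM, of which mouse 39 was low and the others were near the top control. The log2 fold change of Cd+Se against Se was -0.64 (limma adjusted p = 0.164).

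Ces2a, an acylglycerol hydrolase, was lower with Cd on either diet. It was 87.9, 109, 86.4 and 98.7 TPM in control mice 27, 28, 29 and 30, and 80.5, 63.6, 51.1 and 55.4 TPM in Cd mice 1, 2, 5 and 6. In Cd+Se mice 13 to 16 it was 68.9, 69.99, 54.3 and 69.0 TPM, and in Se mice 39, 40, 41 and 44 it was 111, 141, 99.4 and 133 TPM. All 8 mice given Cd, at 51.1 to 80.5 TPM, lay below all 8 that were not, at 86.4 to 141 TPM. The log2 fold change was -0.61 in Cd against control (SE 0.15, limma adjusted p = 0.00671) and -0.87 in Cd+Se against Se (SE 0.15, limma adjusted p = 0.0119). The second call was lost without Se mouse 44 (limma adjusted p = 0.0534) and in a model with only the groups compared (0.102). Cd+Se and Cd mice overlapped, and their log2 difference was 0.08 (95% interval -0.24 to 0.40). Averaged over both diets, a contrast chosen after the data were seen, the log2 effect of Cd on Ces2a was -0.74 (SE 0.11, limma adjusted p = 0.000392). Ces2a was the only member whose mice with and without Cd did not overlap, a separation that 1.32% of all genes tested showed in the lower direction.

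Ces2e, the second Ces2 gene of this level, gave 120, 89.3, 96.4 and 86.7 TPM in control mice and 78.9, 64.5, 48.9 and 62.9 TPM in Cd mice, in the same order of animals. The groups were apart, with a log2 fold change of -0.62 (SE 0.16, limma adjusted p = 0.00921). In Cd+Se mice 13 to 16 it was 50.2, 68.4, 51.1 and 67.8 TPM, again below every control. The log2 fold change of Cd+Se against control was -0.72 (SE 0.16), and its limma adjusted p of 0.0655 did not pass the threshold. It passed in 4 of 24 alternative settings, quantile normalization (limma adjusted p = 0.0104), median centring (0.0142), protein-coding genes only (0.045) and without Cd mouse 5 (0.0381). Se mice had 73.2, 88.0, 74.0 and 62.0 TPM, which overlapped both the controls and the Cd+Se mice. The Cd+Se and Cd mice differed by -0.10 on the log2 scale (95% interval -0.44 to 0.24).

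Ces3b, the close relative of Ces3a, was 224, 199, 217 and 279 TPM in the controls and 155, 165, 106 and 91.8 TPM in the Cd mice. These groups did not overlap, but the log2 fold change of -0.85 had an SE of 0.33 and a limma adjusted p of 0.0575. It passed the threshold in 6 of 24 alternative settings, a model with only the groups compared (limma adjusted p = 0.0109), protein-coding genes only (0.0441) and the fits without Se mouse 40 (0.0248), Se mouse 44 (0.0454), Cd+Se mouse 15 (0.0474) or Cd mouse 2 (0.049). In Cd+Se mice the values split into 242 and 257 TPM in mice 13 and 14 and 114 and 127 TPM in mice 15 and 16. Se mice ranged from 93.5 TPM in mouse 40 to 299 TPM in mouse 44.

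Ces2c, the least abundant member, was the only one with a positive log2 fold change in Cd against control. It was 22.04, 12.6, 12.9 and 18.5 TPM in control mice and 20.98, 20.3, 25.9 and 16.3 TPM in Cd mice, with overlap, and the log2 fold change was 0.34 (95% interval -0.18 to 0.86, limma adjusted p = 0.307). In Cd+Se mice 13 to 16 it was 14.2, 18.9, 7.83 and 16.6 TPM, so that mouse 15 had the lowest value of the series. Cd+Se against Cd gave -0.55 (limma adjusted p = 0.128), and the interaction of Cd and Se, the difference between the effects of Cd on the 2 diets, gave -0.87 (SE 0.35, limma adjusted p = 0.172). Neither passed the threshold.

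The remaining members overlapped between Cd and control mice. Ces1e gave -0.47 on the log2 scale (limma adjusted p = 0.0557), Ces1f -0.36 (0.159), Ces3a -0.23 (0.521), Ces1c -0.20 (0.366) and Ces1g -0.12 (0.78), where the parentheses hold limma adjusted p. Ces1e passed the threshold in 5 of 24 alternative settings, with protein-coding genes only (limma adjusted p = 0.0469) and without control mouse 27 (0.0412), Cd mouse 1 (0.0388), Cd mouse 2 (0.0303) or Cd+Se mouse 13 (0.0465). Ces1g, studied for its role in hepatic lipid export, has an interval from -0.70 to 0.47, which spans changes in both directions. Ces1c, the most abundant member, averaged 1600 ± 113 TPM with Cd alone and 1877 ± 307 TPM with both agents (SD, n = 4). The respective means of Ces3a were 895 ± 48.1 TPM and 932 ± 165 TPM.

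**Figure D2:**
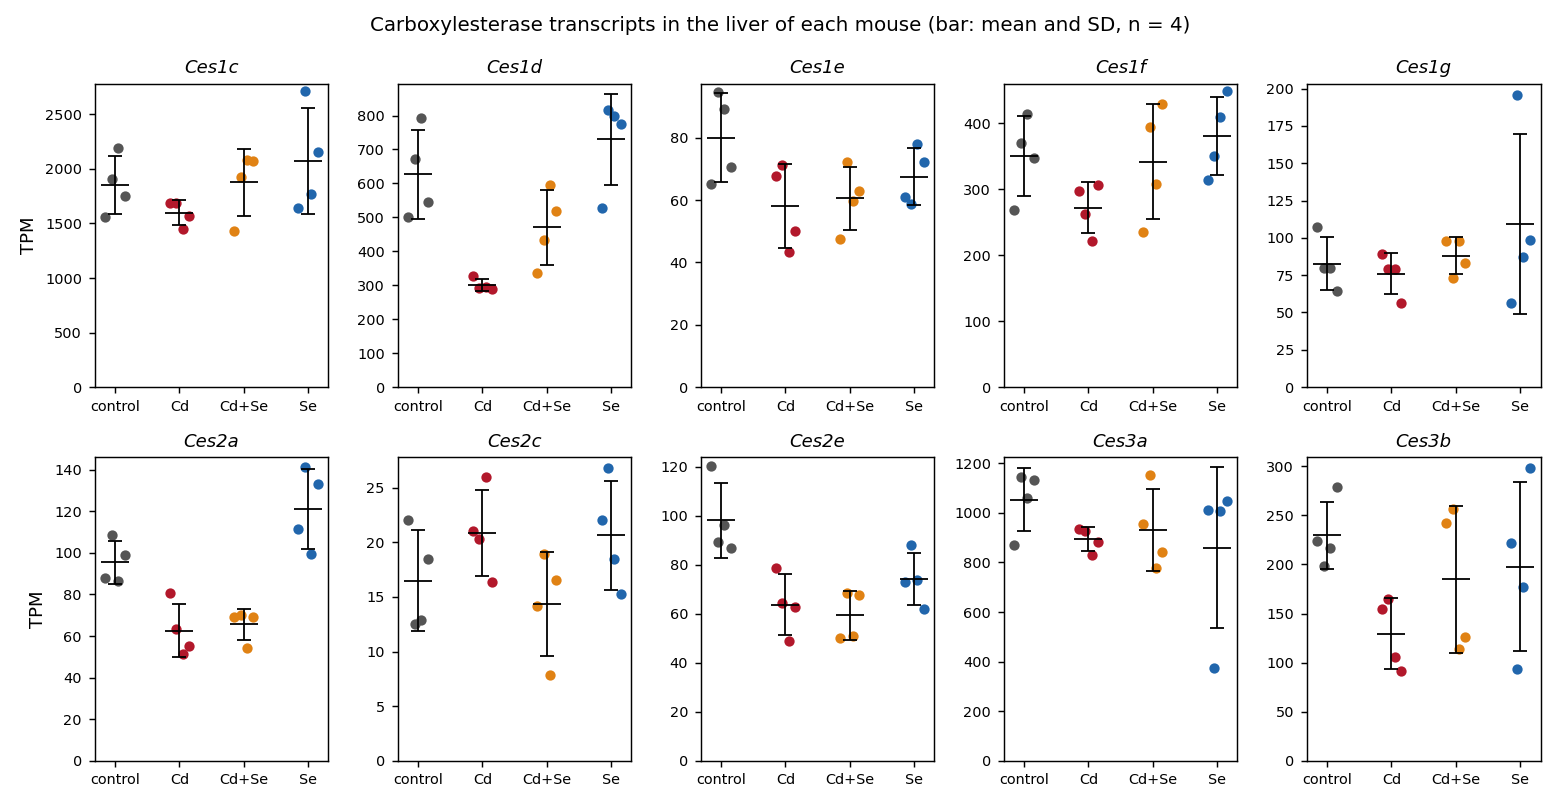
TPM of each of the 10 members in each mouse, by group, with the mean and SD (n = 4) in black. Ces1d, Ces2a, Ces2e and Ces3b show the 4 Cd mice below the 4 controls, and 1 Se mouse stands apart at 376 TPM of Ces3a.

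As a list, 3 of 10 members were lower in Cd against control past the threshold and 0 were higher, against 24.9% and 5.82% of all genes tested. With this scaling the members' share is near that of all genes. Of the 10, 4 had Cd mice wholly below controls, where 27.8% of all genes did. The median log2 fold change was -0.41 for the members and -0.17 for all genes tested. With each library centred on its own median, which moves the median of all genes to 0.05, the same 3 calls stood, with log2 fold changes of -0.82 for Ces1d, -0.39 for Ces2a and -0.40 for Ces2e, while the shares of all genes became 15.3% lower and 19.2% higher.

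In Cd+Se against Cd, 1 of 10 members was higher past the threshold, Ces1d, and 0 were lower, against 13.6% and 2.35% of all genes. Median centring turned these shares into 7.96% higher and 10.8% lower, with 0 members called, and 6.52% of all genes were called in either direction without Cd mouse 5 and 6.05% without Cd+Se mouse 14, against 15.9% with all mice. Ces1d was also the only member whose Cd+Se mice all lay above the Cd mice, as 16.1% of all genes did. The median log2 fold change was 0.15 for the members and 0.17 for all genes. Cd+Se and control mice differed for 0 of 10 members by limma, against 0.484% of all genes, although 4 members had an unadjusted p under 0.05, as 10.9% of all genes did. Ces2a and Ces2e were apart in the lower direction, as 4.98% of all genes were. Cd+Se against Se called 1 member lower, Ces2a, against 0.17% of all genes, and 1 member, again Ces2a, had groups apart, against 3.68%. These comparisons share their control, Cd or Cd+Se mice, so they are not independent of each other.

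Se alone called 0 of 10 members and 0% of all genes by limma. At an unadjusted p under 0.05 there were 2 members, Ces2a at a log2 fold change of 0.33 and Ces2e at -0.40, and 454 genes, 3.86% of those tested. The interaction called 0 of 10 members and 1.04% of all genes, with 1 member, Ces2c, at an unadjusted p under 0.05, as 21.3% of all genes were. The share of all genes called by it was 6.21% with median centring and 2.96% without Se mouse 40. Without Cd+Se mouse 14 it was 0.0255%, and without control mouse 29 it was 0.017%. The count of members called was 0 in each of these settings. Averaged over both diets, Cd lowered 3 of 10 members, Ces1d (-0.84), Ces2a (-0.74) and Ces2e (-0.47), against 19.6% of all genes. On the SeMet diet alone (Cd+Se against Se) Ces2e was not called. Its log2 fold change there lay between -0.41 and -0.24 over 24 alternative settings, with limma adjusted p between 0.244 and 0.813. Outside the members, Ces2g was lower in the averaged contrast (-0.38, limma adjusted p = 0.0302) and Ces1b gave 0.07 (limma adjusted p = 0.755).

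**Figure D3:**
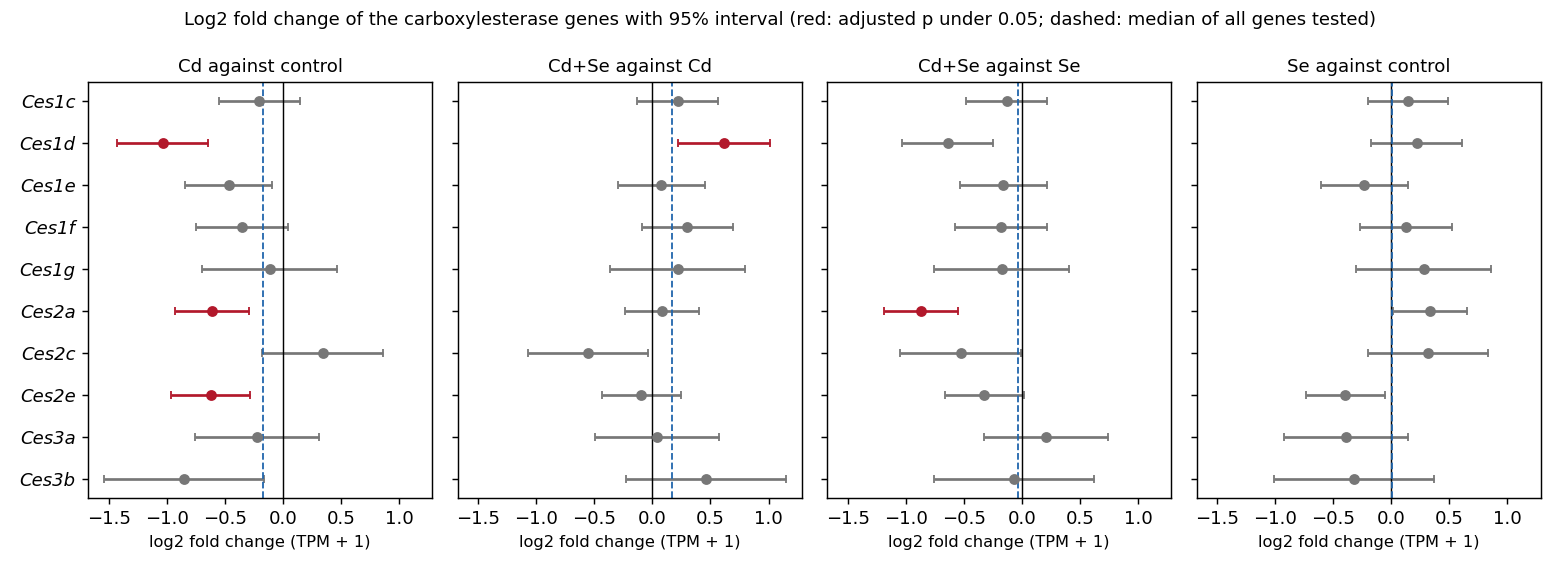
Log2 fold change of each member on the log2(TPM + 1) scale with its 95% interval in 4 comparisons; red marks a limma adjusted p under 0.05 and the dashed line the median of all genes tested. Red points are Ces1d, Ces2a and Ces2e in Cd against control, Ces1d in Cd+Se against Cd and Ces2a in Cd+Se against Se.

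Summed by group of the family, the 5 Ces1 members came to 2993 ± 459 TPM in controls, 2307 ± 165 with Cd, 2838 ± 477 with Cd and Se, and 3359 ± 651 with Se (SD, n = 4). Ces1c carried most of that sum. The 3 Ces2 members came to 210 ± 14.7 TPM in controls, 147 ± 23.9 in Cd, 139 ± 20.3 in Cd+Se and 216 ± 27.8 in Se mice. The highest mouse given Cd, at 180 TPM, was below the lowest of the others, at 192 TPM. Most of this sum was Ces2a and Ces2e, each given above as lower in Cd mice. Ces2c averaged 16.5 TPM in control and 20.9 TPM in Cd mice. The 2 Ces3 members came to 1282 ± 136 TPM in controls, 1024 ± 79.8 in Cd, 1117 ± 235 in Cd+Se and 1058 ± 398 in Se mice. The 10 together came to 4485 ± 512 TPM in controls, 3478 ± 263 in Cd, 4094 ± 433 in Cd+Se and 4633 ± 464 in Se mice.

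Some libraries stood apart. Cd mouse 5 held the lowest value of the series for 4 members and Cd mouse 6 for 3. These libraries also had the lowest medians over all genes tested, 2.68 and 2.90 in log2(TPM + 1), where the others were between 3.06 and 3.36. The part of this shift in the values of single members was not tested. Without Cd mouse 5 the log2 fold change of Cd against control was -1.03 for Ces1d, -0.53 for Ces2a and -0.50 for Ces2e, each still past the threshold by limma. Without Cd mouse 6 it was -1.02, -0.56 and -0.62, again all past the threshold. Se mouse 40 held the highest value of 5 members and the lowest of Ces3a. In that mouse Ces3a was 376 TPM, where the other Se mice had 1008 to 1047 TPM, Ces3b was 93.5 TPM and Ces1g was 196 TPM. The same library, searched after these values were seen, had the lowest Sult2a8 (72.4 TPM, against 435 to 647 in the 15 others), Hsd3b5 (6.78 TPM, against 23.6 to 137) and Elovl3 (1.35 TPM, against 8.61 to 59.5), liver genes known for their higher level in males. It also had the highest Cux2 (11.4 TPM, against at most 1.16), known for its level in females. Xist was at most 0.06 TPM and Ddx3y at least 19.5 TPM in every library. Without mouse 40 the Se group averaged 1022 ± 22.002 TPM of Ces3a (SD, n = 3), 0.971 times the control mean, in place of 860 ± 323 TPM with it.

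**Figure D4:**
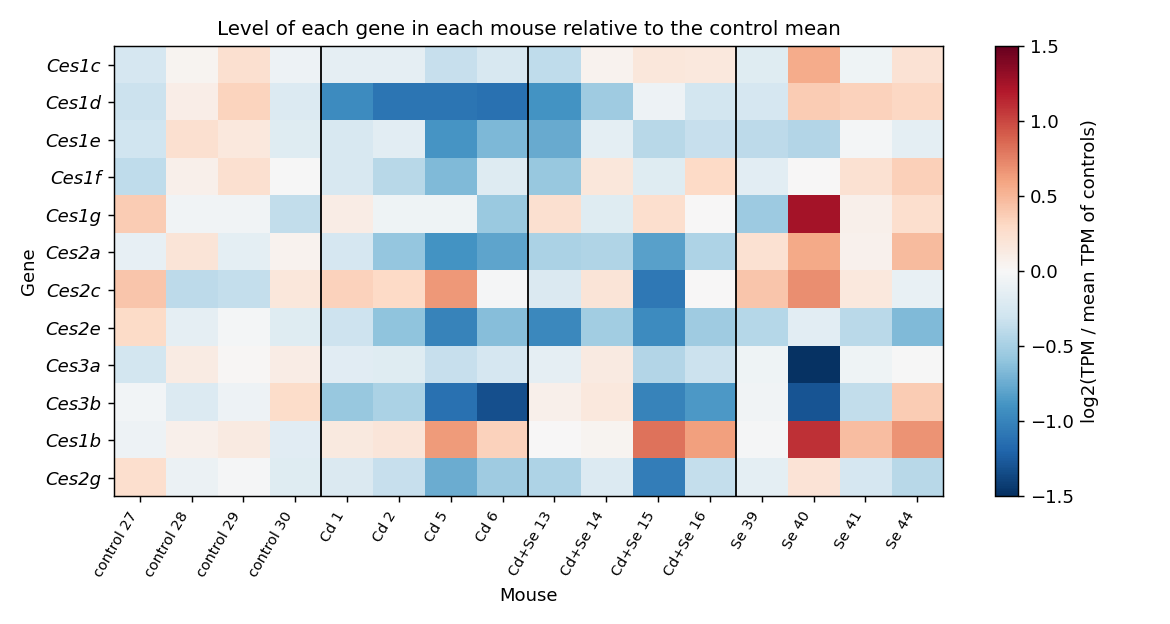
Level of the 10 members and of Ces1b and Ces2g in each of the 16 mice, as log2 of TPM over the control mean, blue for lower and red for higher. The row of Ces1d is blue in all 4 Cd mice, and the column of Se mouse 40 holds the darkest blue for Ces3a, at 376 TPM, and dark red for Ces1g, at 196 TPM.

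The members did not move as 1 block across mice. Over the 16 libraries, which share their groups, 31 of 45 pairs of members had a positive Pearson r of log2(TPM + 1), with a median of 0.26. The highest was 0.74, for Ces1d with Ces1f, and it was 0.63 after group means were removed. Ces1d with Ces2a had an r of 0.74 that was -0.0007 within groups. Ces1g with Ces3a was the lowest, at -0.77 over all libraries and -0.80 within groups. Se mouse 40 is at an extreme of both genes, and the r without that mouse was not computed. Ces3a and Ces3b correlated at 0.69, and 0.77 within groups.

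Some of these transcripts are close copies, which bears on how reads were shared between them. Ces3a and Ces3b were 95.4% identical over 2046 aligned bases of the GENCODE M21 transcripts, and Ces1c and Ces1b 91.4%. Windows of 100 bases that recur exactly in another gene made up 15.98% of Ces2c (mostly in the pseudogene Ces2d-ps), 10.7% of Ces2a (in Gm7208, listed at 0 in all libraries), 9.09% of Ces3a, 7.68% of Ces3b and 1.39% of Ces1c. They made up 0% of Ces1d, Ces1e, Ces1f, Ces1g and Ces2e. The length of the reads is not given, and with windows of 50 bases the shares were 42.2% for Ces2c, 30.9% for Ces3a, 26.1% for Ces3b, 22.2% for Ces2a and 16.98% for Ces1c, and between 1.28% (Ces1d) and 3.36% (Ces2e) for the other 5. The levels of Ces2c, Ces3a, Ces3b, Ces2a and Ces1c are less certain than that of Ces1d, since reads from such windows fit more than 1 gene. Ces1b, the near copy of Ces1c, gave a log2 fold change of 0.32 in Cd against control (limma adjusted p = 0.264), with Cd mice at 35.9 to 50.2 TPM above controls at 28.9 to 35.5 TPM. Of the 11766 genes tested, 758 had Cd mice wholly above controls.

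Other lipid and ester hydrolases of the liver were counted from a list of 30 genes, of which 29 were tested. In Cd against control 11 were lower and 1 was higher, with a median log2 fold change of -0.35, where 24.9% of all genes were lower and 5.82% higher, with a median of -0.17. With median centring the shares of all genes were 15.3% and 19.2%, so the counts of this and the following lists hold for the main scaling. The lower genes with the largest changes were Ddhd2, a phospholipase and triacylglycerol hydrolase (-1.53), Nceh1, a neutral cholesterol ester hydrolase (-1.30), and Mgll, which cleaves monoacylglycerol (-1.10). Nceh1 went from 8.97 ± 1.38 TPM in controls to 3.10 ± 0.94 in Cd and 6.04 ± 0.81 in Cd+Se mice (SD, n = 4). Lpl, lipoprotein lipase, was the higher one (0.95). With SeMet added to Cd (Cd+Se against Cd), 9 of 29 were higher and 0 lower, against 13.6% and 2.35% of all genes, led by Ddhd2 (0.82), Nceh1 (0.80) and Lipa, lysosomal acid lipase (0.72). In that comparison 7.96% of all genes were higher and 10.8% lower with median centring, and 0.399% were higher in a model with only the groups compared.

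In the list of VLDL assembly and triacylglycerol synthesis, 5 of 18 genes tested were lower in Cd mice and 1 was higher, shares near the 24.9% and 5.82% of all genes. Lower were Fitm2, of lipid droplet formation (-1.46), Plin5, a lipid droplet coat protein (-1.03), and Dgat2, which makes triacylglycerol (-0.83). Apoc3, an inhibitor of lipoprotein lipolysis, was higher (0.43). Against Cd mice, Cd+Se mice had 3 of the 18 higher and 1 lower, beside 13.6% and 2.35% of all genes. The higher ones were Fitm2 (0.84), Dgat2 (0.57) and Apob, the structural protein of VLDL (0.42), and the lower one was Apoc3 (-0.52).

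Factors known to bind or induce carboxylesterase genes were read one by one. Ppara, the fatty acid receptor, was 41.2 ± 5.10 TPM in controls, 18.0 ± 1.69 in Cd, 34.6 ± 6.34 in Cd+Se and 41.7 ± 11.8 in Se mice (SD, n = 4). Hnf4a, a hepatocyte master factor, was 152 ± 10.98, 86.6 ± 11.4, 131 ± 29.3 and 152 ± 27.7 TPM in the same order. Both fell in Cd against control (-1.15 and -0.81) and were higher in Cd+Se against Cd (0.90 and 0.58). Nr3c1, the glucocorticoid receptor, gave -0.71 and 0.53, both past the threshold. The xenobiotic receptors PXR (Nr1i2, -0.12) and CAR (Nr1i3, -0.12) and the oxidative stress factor Nrf2 (Nfe2l2, 0.29) did not pass it in Cd against control, with limma adjusted p of 0.66, 0.699 and 0.276. Over the 20 receptors and hepatocyte factors, 9 were lower and 1 was higher in Cd mice, against 24.9% and 5.82% of all genes, led by Onecut1 (-2.40) and Prox1 (-1.30), with Nr0b2 the higher one (0.60). Among them 7 were higher in Cd+Se against Cd, where 13.6% of all genes were, led by Prox1 (0.98), with Foxa3 at 0.76, and 1 was lower, Nr0b2 (-0.81).

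Of 14 tested targets of CAR and PXR, 5 were lower in Cd mice and 0 were higher, against 24.9% and 5.82% of all genes. Alas1, the first enzyme of heme synthesis (-1.91), Por, the electron donor of cytochromes P450 (-1.39), and Cyp3a13 (-0.95) changed most. In Cd+Se against Cd, a comparison that shares the Cd mice, 3 of the 14 were higher, against 13.6% of all genes, namely Por (1.20), Alas1 (1.15) and Cyp3a13 (0.92), and 0 were lower. Many carboxylesterases are held in the lumen of the endoplasmic reticulum, and of 14 tested genes of retention and folding there, 3 were lower and 2 higher in Cd mice, against the same shares of all genes. The lower ones were Gusb, whose product is held in the reticulum by egasyn, the product of Ces1e (-0.73), Ero1a (-0.66) and Canx (-0.53). The higher ones were Ddit3, a stress factor (1.14), and Calr (0.48). Cd+Se against Cd gave 2 of these 14 higher, Ero1a (0.63) and Gusb (0.56), and 1 lower, Ddit3 (-0.78), beside 13.6% and 2.35% of all genes.

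**Figure D5:**
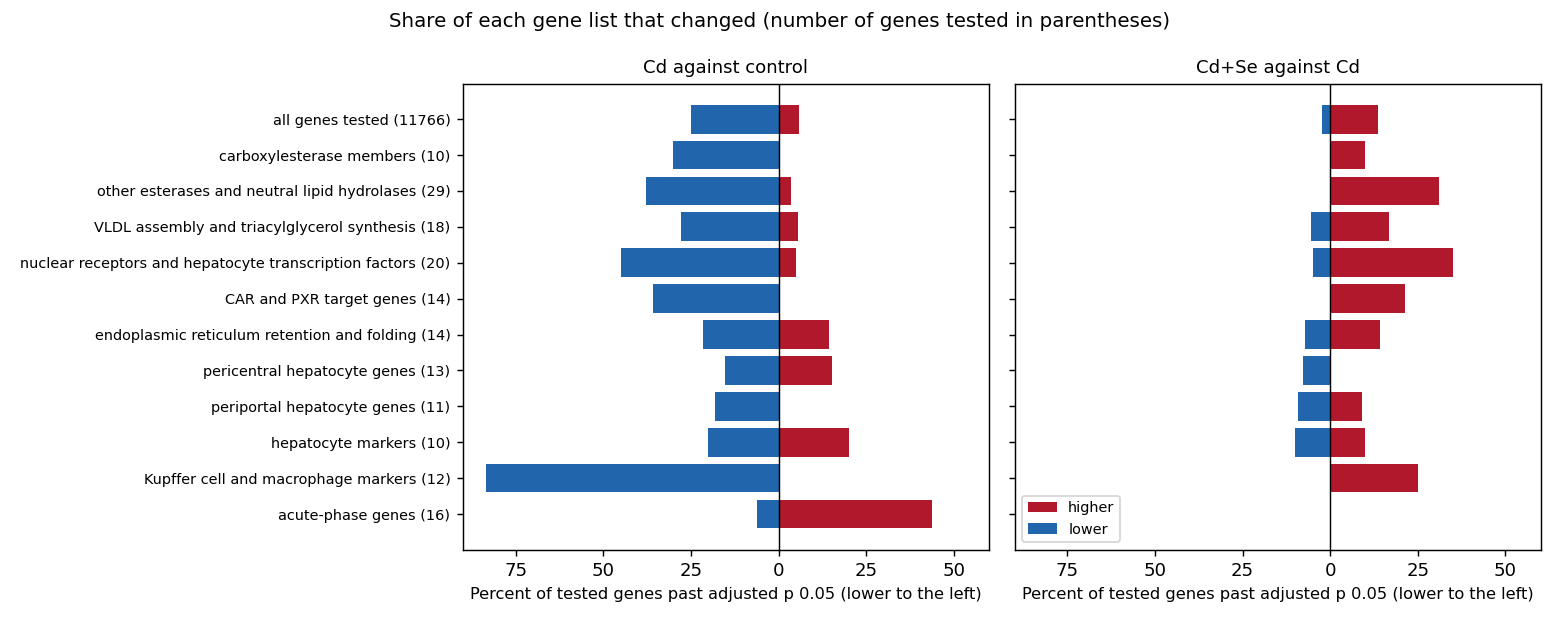
Percent of the tested genes of each list that were lower (blue, to the left) or higher (red, to the right) past a limma adjusted p of 0.05, in 2 comparisons, with the number tested in parentheses. The bar of the members, 3 of 10 lower, is near that of all genes, 24.9%, in the first panel.

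Some markers of cell types also differed between Cd and control mice, beside 24.9% of all genes lower and 5.82% higher. Of 12 Kupffer cell and macrophage markers 10 were lower in Cd against control and 0 higher, led by Vsig4 (-1.96), Timd4 (-1.90) and Marco (-1.40), and their summed level was 258 ± 25.6 TPM in controls, 144 ± 22.3 in Cd, 207 ± 19.3 in Cd+Se and 229 ± 61.8 in Se mice (SD, n = 4). The most abundant, Lyz2, was at 47.9 TPM in controls, 46.2 TPM with Cd and 83.9 TPM with Cd+Se, and made up most of the difference between the sums of Cd and Cd+Se mice. Of the 12, 3 were higher in Cd+Se against Cd, Lyz2 (0.83), Adgre1 (0.78) and Cd68 (0.63), where 13.6% of all genes were. Vsig4 was at 17.9 TPM in controls, 3.87 TPM with Cd and 4.74 TPM with Cd+Se, and Timd4 at 3.28, 0.142 and 0.393 TPM. In Se mice Timd4 averaged 2.885 TPM, and it reached the mean of 1 TPM asked for testing only through the mice without Cd. Against controls, 3 of the 12 were lower in Cd+Se mice and 0 higher, beside 0.17% and 0.314% of all genes. All 3 tested neutrophil markers (of 8) were higher in Cd mice, S100a8 by 1.55, S100a9 by 1.53 and Retnlg by 1.14 on the log2 scale. All 3 were also higher in Cd+Se against control and against Se, beside 0.314% and 0.544% of all genes. Cd+Se against Cd passed the limma threshold for none of them. Retnlg averaged 0.22 TPM in controls, 0.365 in Se, 1.76 in Cd and 3.11 in Cd+Se mice. It reached the mean of 1 TPM asked for testing only through the mice given Cd. The summed level of the 8 neutrophil markers was 12.2 ± 4.89 TPM in controls, 37.2 ± 4.05 in Cd, 55.1 ± 13.03 in Cd+Se and 8.21 ± 1.91 in Se mice (SD, n = 4). Of 16 acute-phase genes 7 were higher in Cd mice, led by Saa3 (3.58), Saa2 (3.36) and Lcn2 (3.21), and 1 was lower, Fga (-0.69). Saa2 (SE 1.24, limma adjusted p = 0.0496) and Lcn2 overlapped between Cd and control mice. Saa2 reached 3310 TPM in controls and was as low as 1003 TPM in Cd mice. For Lcn2 these values were 55.05 and 54.82 TPM. The part of the marker and acute-phase genes in the levels of the members was not tested.

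Hepatocyte markers were split, with 2 of 10 lower (Cps1, -1.36, and Serpina1c, -0.37) and 2 higher (Trf, 0.69, and Apoa2, 0.56) in Cd mice. The counts of this and the following lists stand beside 24.9% of all genes lower and 5.82% higher. Alb, which was not called, averaged 52073 ± 8175 TPM in controls, 33212 ± 9696 with Cd and 42722 ± 10265 with Cd+Se (SD, n = 4). The 10 markers summed to 120143, 125044, 88571 and 93233 TPM in Cd mice 1, 2, 5 and 6, and to between 100639 and 127273 TPM in controls. The part of this in the levels of the members was not tested. Among genes of the zones of the lobule, 2 of 13 pericentral genes were lower (Tbx3, -0.76, and Slc1a2, -0.62) and 2 higher (Rhbg, 0.63, and Lect2, 0.37), and 2 of 11 periportal genes were lower (Cyp2f2, -0.86, and Pigr, -0.81). Of 10 endothelial markers 4 were lower, led by Kdr (-0.90), and Stab1 was higher (1.13). Of 7 tested stellate cell markers Reln was lower (-0.93). The 7 cholangiocyte markers, of which Spp1 was the most abundant, summed to 61.5 TPM in control and 68.5 TPM in Cd livers, and the 10 lymphocyte markers to 5.33 and 5.54 TPM.

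The genes outside the family whose pattern over the 16 libraries was most like the mean of the members' standardised levels were Esrra (Pearson r 0.94), Sec14l2 (0.94), Cstf2t (0.94), Slc22a23 (0.94), Akr1c12 (0.93), S1pr1 (0.93), Rhot2 (0.93) and Galm (0.93), out of 7378 genes of at least 5 TPM. Esrra, an orphan nuclear receptor of mitochondrial genes, was 17.1 ± 2.28 TPM in controls, 9.66 ± 1.52 in Cd, 12.04 ± 1.71 in Cd+Se and 16.8 ± 2.37 in Se mice (SD, n = 4). Nearest to single members were Gna12 for Ces1d (0.94), Aifm1 for Ces2e (0.92), Apol7a for Ces2a (0.89), Lin7a for Ces3b (0.89), Slco2a1 for Ces1c (0.92), Adh4 for Ces1e (0.89), Akr1c14 for Ces1f (0.89), Slc16a7 for Ces1g (0.88) and Gm7331 for Ces2c (0.79). Sult2a8 was nearest to Ces3a, with a Pearson r of 0.93 and a Spearman rho of 0.63, and both are lowest in Se mouse 40. The points are mice that share 4 groups and are not independent, so no p is given.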

How the data were processed

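The authors deposited 1 table of TPM values (shares of all transcripts, scaled for length) for the liver of 16 mice, with 57010 genes by Ensembl identifier and symbol. RNA was poly(A) selected, and a company made and sequenced the libraries. The submitters' processing notes name fastp, HISAT2 and StringTie, with no versions, and a human build (GRCh38), although the identifiers are of mouse; the build actually used is not given in the sources used here. No reads are counted in the table, so depth is unknown and precision rests on the 4 mice a group. How reads of near-identical copies were assigned is likewise not given.

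Groups were taken from the treatment given in the labels, and columns were matched to samples by the animal number in the titles. Values were compared as log2(TPM + 1) with limma 3.58.1 in R 4.3.3, in 1 model over the 16 libraries with a mean for each group and a trend in eBayes, for the 11766 genes averaging 1 TPM or more. Benjamini-Hochberg adjustment ran over all of them, and 0.05 was the threshold. The interaction of Cd and Se was tested in the same model. The steps were tested on simulated data.

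The members and gene lists were chosen with earlier results of these data known. Named are all members, the other family genes, known regulators and, from each list, up to 3 genes a direction with the largest log2 fold change among those past the threshold in Cd against control and in Cd+Se against Cd, the most abundant marker, markers at 0, and the genes most like the members by Pearson r. The averaged effect of Cd, the shared windows, the shared promoter run and the genes given for Se mouse 40 were chosen after the data were seen.

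Alternatives were a pseudocount of 0.1, no filter, a mean of at least 5 TPM, quantile normalization, centring on each library's median, a model of only the groups compared, no trend in eBayes, protein-coding genes only, a log2 fold change of at least 1, and leaving out each mouse. Positions and transcripts are from GENCODE M21 (GRCm38), and promoters from RefSeq (GRCm38.p6), of which the 250 bases before the start were used. Identity was computed with Biopython 1.88.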

Additional observations from a re-analysis of the deposited data

Results flagged for a closer look

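In 4 of 40 combinations of member and group 1 mouse was set off from the rest of its group. Its gap to its nearest neighbour made up more of the whole range of the group than Dixon's criterion allows at 95% for 4 samples. The gap is relative to that range, so a group whose mice lie close together can also be flagged. Chance alone flags about 1 group in 20, which is 2 of 40.

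Ces1d in Cd mice gave a gap of 0.851 of the range, since mouse 1 was at 327 TPM and the others were between 288 and 294 TPM. Ces1d in Se mice gave 0.863, with mouse 39 at 528 TPM and the others between 776 and 816 TPM. Ces2a in Cd+Se mice gave 0.933, with mouse 15 at 54.3 TPM and the others between 68.9 and 69.99 TPM. Ces3a in Se mice gave 0.941, with mouse 40 at 376 TPM and the others between 1008 and 1047 TPM.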

How the results depend on the processing

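For 34 member results, 771 of 811 alternative values kept their direction and their side of the threshold. Of the other values, 11 lost a call, 17 gained one and 12 turned sign. The causes were not tested. The 34 are every member in Cd against control and Cd+Se against Cd, and only chosen members in the other contrasts. The results left out are not in these totals, and some turned sign without Se mouse 40. In Cd+Se against Se, Ces1g went from -0.18 to 0.15 and Ces3a from 0.21 to -0.15. Ces1g went from 0.28 to -0.049 in Se against control and from -0.059 to 0.27 in the interaction. The lower calls of Ces1d, Ces2a and Ces2e in Cd against control stood in all 24 settings, with Ces1d between -1.14 and -0.82. A required log2 fold change of at least 1 left 1 member called there (3.2% of all genes), and protein-coding genes only gave 5 (33.6%). Leaving out mice gave 3 to 5, with 5 without Cd mouse 2 (28.2%). For Cd+Se against Cd the count was 0 with library median centring (18.8% of all genes), with no filter (4.05%), with only the groups compared (0.561%) and with a log2 fold change of at least 1 (0.935%), against 15.9% as reported, and 0 to 1 without single mice. For Cd+Se against control it was 1 with quantile normalization (0.884% of all genes), 2 with median centring (0.858%), 1 with protein-coding genes only (0.687%) and 0 to 1 without single mice (1 without Cd mouse 5, 0.586%). For Cd+Se against Se it was 0 with only the groups compared (0.0935%) and with a log2 fold change of at least 1 (0.493%), and 0 to 1 without single mice. Averaged over both diets, a log2 fold change of at least 1 left 0 (0.994% of all genes). Without single mice the averaged contrast gave 3 to 4, with 4 without Cd mouse 2 (23.5%) or Se mouse 40 (23.1%). Without Se mouse 40 Ces3b was also called there (-0.62, limma adjusted p = 0.0353).

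Median centring turned Ces1c (0.017) and Ces1g (0.10) in Cd against control, and Ces1e (-0.12), Ces2a (-0.12) and Ces3a (-0.15) in Cd+Se against Cd. None of these had been called. Without single mice Ces1g ranged from -0.23 to 0.019 in Cd against control, and in Cd+Se against Cd Ces2e ranged from -0.22 to 0.0105, Ces1e from -0.055 to 0.18, Ces2a from -0.0105 to 0.20 and Ces3a from -0.065 to 0.13. No paired analysis was possible because the mice of different groups share no number.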
